A study of Mus musculus with 16 samples.

Results

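Leap2 and Tff3 encode small secreted peptides, and their RNA was followed here in mouse liver. They are 2 of the 5205 genes in the deposited tables, and were chosen by gene name after earlier results of these data had been read, among genes that the authors had selected on their difference between diets. The series holds livers of 16 male C57BL6 mice, 4 in each of 4 groups, fed a low-fat (LF) or an AMLN diet, which is rich in fat, fructose and cholesterol, for 32 weeks. All mice carried a floxed Thbs1, the gene of thrombospondin 1. In TSP1ΔPf4 mice the Pf4-Cre transgene, which is active in megakaryocytes and the platelets they form, deleted it, and TSP1F/F littermates kept it. One table compares the diets in TSP1F/F mice (2558 genes) and the other compares them in TSP1ΔPf4 mice (3399 genes). Both peptide genes were in the TSP1ΔPf4 table and 0 of 2 were in the TSP1F/F table, so their levels below are those of 4 LF-fed and 4 AMLN-fed TSP1ΔPf4 mice. Their levels in TSP1F/F mice are not analysed here, and no comparison of the genotypes was made for them.

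Leap2 is made mainly by hepatocytes and enterocytes. It was first described as an antimicrobial peptide, and its mature form binds the ghrelin receptor Ghsr, where it opposes ghrelin, the stomach hormone that stimulates feeding and growth hormone release. Tff3 is a trefoil factor, a compact peptide held together by disulphide bonds, which goblet cells secrete with mucins and which takes part in the repair of epithelia; in liver it is also known from bile ducts and hepatocytes. Both peptides leave the cell through the secretory pathway, and RNA in the liver does not measure the peptide in blood or bile.

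Leap2 (ENSMUSG00000036216) lies on the reverse strand of chromosome 11 of mm10, from 53422181 to 53423170. Its 3 exons hold 531 bases, of which 228 are coding and 303 are untranslated. Tff3 (ENSMUSG00000024029) lies on the reverse strand of chromosome 17, from 31125306 to 31129646, and its 3 exons hold 493 bases, of which 243 are coding and 250 are untranslated. Both are short single-product genes, and 0 annotated genes overlap either of them. For Leap2 and Tff3 the coordinates and lengths in the deposited table are the same as those of the GENCODE annotation.

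Library totals, recovered from counts, gene lengths and FPKM, ranged from 17127965 to 20700888 among the TSP1ΔPf4 mice on LF (median 18838184) and from 23221536 to 31363462 among those on AMLN (median 27148200). Depth therefore differed with diet, and levels are given as CPM, counts scaled to the library total. The LF-fed mouse of replicate 3 had the smallest total and stood apart, since the listed genes took 65.3% of its counts against 48.8%, 45.8% and 51.0% in the other LF-fed mice and 29.9% to 35.8% in the AMLN-fed mice. The tissue was that of the label. Of 25 hepatocyte markers 11 were listed, led by Apoa1, the main protein of high-density lipoprotein, with a mean of 17374 CPM in LF-fed and 8271 CPM in AMLN-fed mice.

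In the 4 LF-fed mice Leap2 had 55.6, 62.8, 169 and 68.8 CPM, from 1046, 1300, 2897 and 1296 counts. In the 4 AMLN-fed mice it had 20.1, 9.05, 13.6 and 17.4 CPM, from 602, 220, 427 and 405 counts. Every AMLN-fed mouse was below every LF-fed mouse, and the lowest LF-fed mouse was 2.77 times the highest AMLN-fed mouse. Listed genes were selected on this difference, and such separation is not particular to Leap2. Groups also did not overlap for Apoa1, for example, while they did for Hnf4a. The share of listed genes without overlap is not given here or below, so the separation is a description only. The means were 89.1 ± 53.7 CPM (SD, n = 4) on LF and 15.05 ± 4.80 CPM (SD, n = 4) on AMLN, a ratio of 5.92. The log2 fold change was -2.56 with a standard error of 0.39. The LF-fed mouse of replicate 3 was 2.71 times the mean of the other LF-fed mice, which lay close together at 62.4 ± 6.61 CPM (SD, n = 3). Without that mouse the ratio of means was 4.15 and the log2 fold change was -2.05.

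Tff3 was the scarcer RNA. It had 5.74, 5.41, 12.6 and 8.22 CPM in the 4 LF-fed mice, from 108, 112, 216 and 155 counts. In the 4 AMLN-fed mice it had 2.20, 1.93, 1.24 and 1.68 CPM, from 66, 47, 39 and 39 counts. The groups did not overlap here either, which again describes a gene selected on this difference. The LF-fed mouse of replicate 3 was again the highest of all 8. The means were 7.995 ± 3.32 CPM (SD, n = 4) on LF and 1.76 ± 0.41 CPM (SD, n = 4) on AMLN, a ratio of 4.53, and the log2 fold change was -2.18 with a standard error of 0.35. Without replicate 3 of the LF-fed mice the ratio was 3.66 and the log2 fold change was -1.87. The 95% Poisson interval of the lowest AMLN-fed value ran from 0.884 to 1.70 CPM, overlapped those of AMLN replicates 2 and 4 and ended just below that of AMLN replicate 1. Such intervals cover counting error only.

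**Figure D1:**
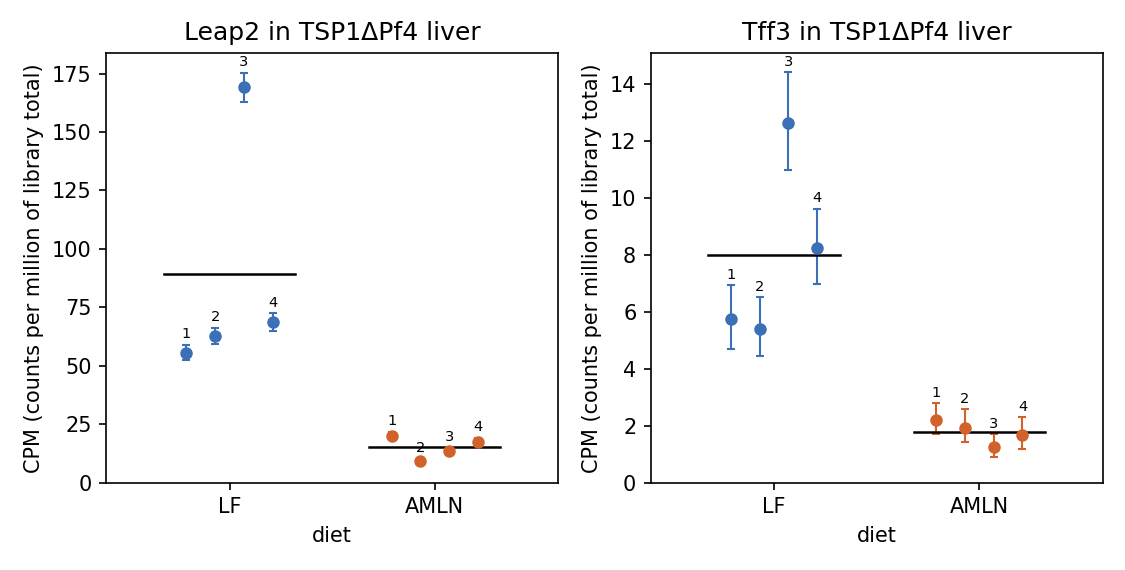
CPM of Leap2 (left) and Tff3 (right) in each TSP1ΔPf4 mouse by diet, on linear axes from 0; points are mice numbered by replicate, bars are 95% Poisson intervals of the counts, and lines are group means. AMLN-fed mice reached at most 20.1 CPM for Leap2 and 2.20 CPM for Tff3, below the lowest LF-fed mice at 55.6 and 5.41 CPM.

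These differences are a description and carry no test, because the table that lists the genes was selected on the same contrast in the same mice. For scale, edgeR's quasi-likelihood test called 47 of 3089 testable genes lower (1.52%) and 45 higher (1.46%) on AMLN in TSP1ΔPf4 mice, and 2 lower (0.0954%) and 50 higher (2.39%) of 2096 in TSP1F/F mice. These counts are unstable. In TSP1ΔPf4 mice edgeR called 0 genes lower with a replicate block or without LF replicate 2 or 4 or AMLN replicate 1, 2 or 3, with 1 to 9 called higher and 1076 to 1511 lower at an unadjusted p under 0.05. It called 31 lower and 30 higher without LF replicate 1, 86 and 83 without LF replicate 3, 103 and 79 without AMLN replicate 4, and 38 and 160 with TMM. DESeq2 called 366 lower and 1010 higher, and edgeR adjusted over the tested genes only 1362 and 825. Most lists below held more called genes in these settings. The median log2 fold change of all genes tested in TSP1ΔPf4 mice was -0.54. Ordered from the lowest fold change, Leap2 was at position 18 and Tff3 at position 37 of 3089. Bulk RNA cannot tell fewer cells of a type from less RNA per cell.

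Per length, Leap2 RNA was the more abundant of the pair in every mouse. Mean FPKM, which divides by gene length, was 168 for Leap2 and 16.2 for Tff3 on LF, and 28.3 and 3.58 on AMLN. The ratio of Leap2 to Tff3 FPKM was 8.99, 10.8, 12.5 and 7.76 in the LF-fed mice and 8.47, 4.35, 10.2 and 9.64 in the AMLN-fed mice. The ranges of this ratio on the diets overlapped, with AMLN replicate 2, where Leap2 was lowest, as the smallest value. Among 3399 listed genes ordered by mean FPKM, Leap2 was at position 245 on LF and 624 on AMLN, and Tff3 at 1019 and 1794.

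Short genes as a class were lower on AMLN in these libraries. Over 2978 genes with a mean of at least 1 CPM, the difference between diets in mean log2(CPM + 0.5) went with gene length, with a Spearman rho of 0.53 across genes, which are not independent replicates, and of 0.19 over 1987 genes in TSP1F/F mice. The median difference was -1.03 for the 118 other genes longer than 400 and up to 650 bases, the class that holds both peptide genes, and 116 of them were below 0. Only 35 of the 118 were protein-coding, and these had a median of -1.16 with 97.1% below 0. The median difference was -0.74 for 553 genes longer than 1000 and up to 2000 bases and 0.61 for 356 genes over 8000 bases. In the TSP1F/F table the 22 genes of that length class had a median of -0.81, with 12 below 0, but its 6 protein-coding genes had a median of 1.25, and the 17 genes of up to 400 bases had 0.92 with 8 below 0. Every gene in these classes had been selected on the diet difference, and the classes were drawn after the values were seen.

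**Figure D2:**
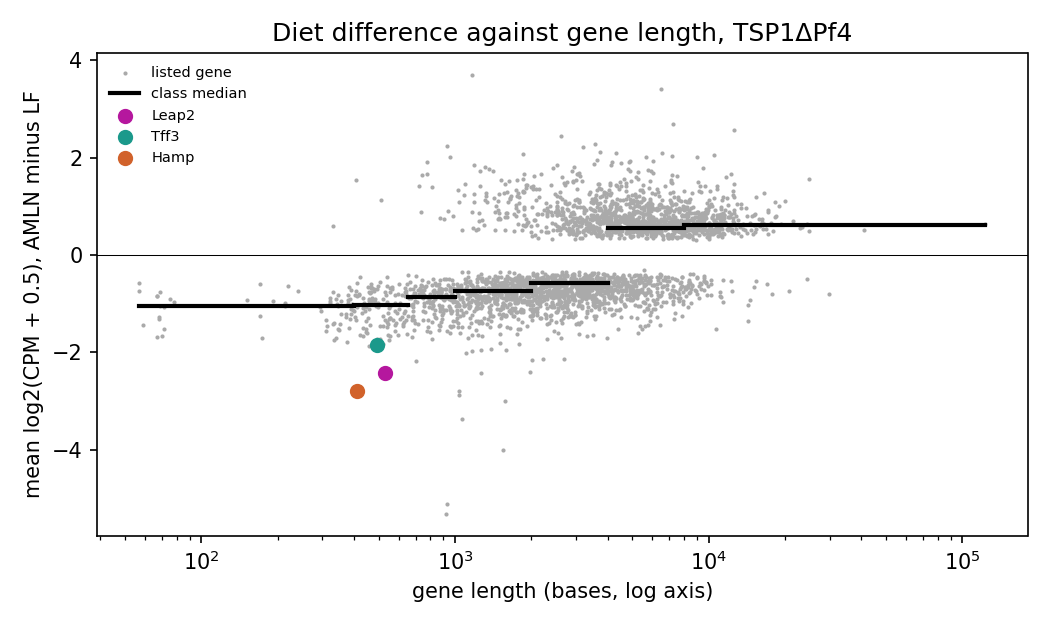
Difference between diets in mean log2(CPM + 0.5), AMLN minus LF, against gene length on a log axis, for 2978 genes of the TSP1ΔPf4 table; grey points are genes and black lines are class medians. Leap2 (-2.43), Tff3 (-1.85) and Hamp (-2.79) lie below their class median of -1.03, and few genes lie near 0 because the table was selected on this difference.

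Leap2 and Tff3 were lower than most short genes. Among all 120 genes of that length class Leap2 had the second lowest difference (-2.43) and Tff3 the fourth (-1.85), after Hamp (-2.79) and the pseudogene Gm5805 (-1.88). Among the 37 protein-coding genes of the class Leap2 was at position 2 and Tff3 at position 3. The class also moved from mouse to mouse. As deviations from the mean of the 8 mice on the log2 scale, its median was 0.10, 0.16, 1.39 and 0.54 in the LF-fed mice and -0.41, -0.73, -0.80 and -0.13 in the AMLN-fed mice. The LF-fed mouse of replicate 3 lay 1.12 above the other LF-fed mice in the class median, 1.44 above them in Leap2 and 0.94 above them in Tff3.

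Set against the class median of the same mouse, Leap2 was at 0.59, 0.71, 0.91 and 0.46 in the LF-fed mice and at -0.34, -1.13, -0.50 and -0.82 in the AMLN-fed mice, in log2 units. The difference between diets was then -1.36. Tff3 was at 0.45, 0.32, 0.24 and 0.50 on LF and at -0.24, -0.07, -0.48 and -0.83 on AMLN, a difference of -0.78. For both genes, which were selected on the diet difference, its size was smaller than on CPM alone. No result is read from the separation of the groups on this scale, since the share of all class genes without overlap is not given. On this scale the groups of Hamp overlapped. The class median was taken over all 118 other genes, of which 35 were protein-coding. This comparison was chosen after the data were seen, and what the shift of short genes contributes to the levels of the peptide genes was not tested.

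**Figure D3:**
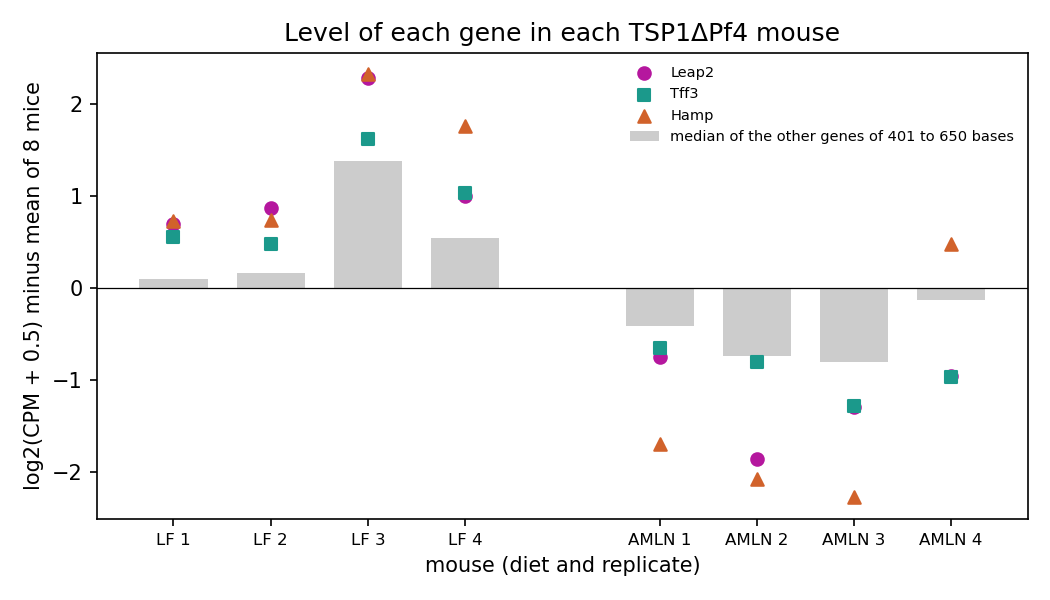
Deviation of log2(CPM + 0.5) from the mean of 8 TSP1ΔPf4 mice, in log2 units, for Leap2, Tff3 and Hamp (points) and the median of the 118 other genes longer than 400 and up to 650 bases (bars from 0). In LF replicate 3 the class median is at 1.39 with Leap2 at 2.29 and Tff3 at 1.63, and in AMLN replicate 4 Hamp is at 0.48 while Leap2 (-0.95) and Tff3 (-0.96) stay below 0.

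Hepcidin (Hamp) is the liver peptide that limits iron export, and it shares with Leap2 a discovery as an antimicrobial peptide. Hamp had 477, 482, 1444 and 977 CPM in the LF-fed and 88.0, 67.5, 58.9 and 400 CPM in the AMLN-fed TSP1ΔPf4 mice. Groups did not overlap on CPM, but AMLN replicate 4 was far above the other AMLN-fed mice. Set against the class median of the same mouse the groups overlapped, with AMLN replicate 4 at 0.61 and LF replicate 2 at 0.58 in log2 units. The log2 fold change was -2.46 with a standard error of 0.63 and did not pass the test (edgeR quasi-likelihood test, Benjamini-Hochberg adjusted p = 0.0829). Without AMLN replicate 4 it was -3.56 with a standard error of 0.44 and was called (edgeR adjusted p = 0.0197), which it was not without any other single mouse. DESeq2 called Hamp lower (adjusted p = 0.00152), as did edgeR when adjusted over the tested genes only (0.0184). Hamp is also in the TSP1F/F table, where means were 843 ± 308 CPM (SD, n = 4) on LF and 380 ± 185 CPM (SD, n = 4) on AMLN and the groups overlapped (log2 fold change -1.15, standard error 0.39, edgeR adjusted p = 0.314). There too DESeq2 called it lower (adjusted p = 0.0233), as did edgeR when adjusted over the tested genes only (0.0392). Whether the genotypes differed in this response was not tested. A near-identical copy, Hamp2, can share reads with Hamp, so its counts are uncertain.

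Of 19 hepatic antimicrobial genes other than Leap2, 5 were listed in TSP1ΔPf4 mice, Hamp among them, with 2 fold changes above 0, 3 below 0, 1 called higher, 0 called lower and a median of -0.48, against 45 higher, 47 lower and a median of -0.54 for all 3089 genes tested. Without LF replicate 3, 2 were called higher, Lcn2 and Lyz2, against 83 of 3144 for all genes tested in that fit. The same 2 were called higher with TMM, against 160 of 3089. In the main fit Lyz2 was not called, with 51.2 CPM on LF and 109 CPM on AMLN (log2 fold change 1.10, standard error 0.34). The gene called higher in the main fit was Lcn2, lipocalin 2, a siderophore-binding protein. Lcn2 rose from 5.96 ± 2.31 to 40.6 ± 33.5 CPM (SD, n = 4 each, log2 fold change 2.77, standard error 0.50, edgeR adjusted p = 0.0433). Its call was lost without LF replicate 2 or 4 or without AMLN replicate 1, 2 or 3, with adjusted p up to 0.113. Ang and Rnase4, ribonucleases of 1 locus, did not pass the test (log2 fold changes -0.69 and -0.48).

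Among hepatokines, proteins that the liver secretes into blood, 17 of 39 others were listed and 16 tested. The fold change was below 0 in 13 of them and above 0 in 3, the median was -0.72, and 1 was called in each direction. Of all 3089 genes tested, 1763 were below 0 and 1326 above 0, with a median of -0.54, 47 called lower and 45 called higher. Without LF replicate 3, 2 hepatokines were called higher and 1 lower, against 83 and 86 of 3144 for all genes tested in that fit. Without AMLN replicate 4 it was 1 higher and 2 lower, against 79 and 103 of 3122. Without LF replicate 4 it was 0, against 1 higher and 0 lower of 3151. Apom, the lipocalin that carries sphingosine 1-phosphate on high-density lipoprotein, fell from 234 ± 61.9 to 89.5 ± 19.0 CPM (SD, n = 4 each, log2 fold change -1.39, standard error 0.25, edgeR adjusted p = 0.0436). That call was lost with a replicate block (adjusted p = 0.118), without LF replicate 2 or 4 and without AMLN replicate 1, 2 or 3, where it reached 0.162. Gpnmb, a membrane glycoprotein of lipid-laden macrophages that is also shed, rose from 0.204 to 7.27 CPM (edgeR adjusted p = 0.011), and its call was lost without LF replicate 4 (0.0655). Rbp4, the carrier of retinol, had 5263 CPM on LF and 3308 CPM on AMLN, and Igfbp2, a binding protein of insulin-like growth factors, had 1317 and 803 CPM; neither passed the test (edgeR adjusted p = 0.09 and 0.294).

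Enho, which encodes the secreted peptide adropin and was picked after its values were seen, had a log2 fold change of -2.68 (standard error 0.63, edgeR adjusted p = 0.0678), close to that of Leap2. Its means were 11.0 ± 6.42 CPM on LF and 1.73 ± 1.39 CPM on AMLN (SD, n = 4 each). In the TSP1F/F table Enho had 16.7 and 4.58 CPM with overlapping groups. At 1269 bases it is longer than the class of the peptide genes.

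**Figure D4:**
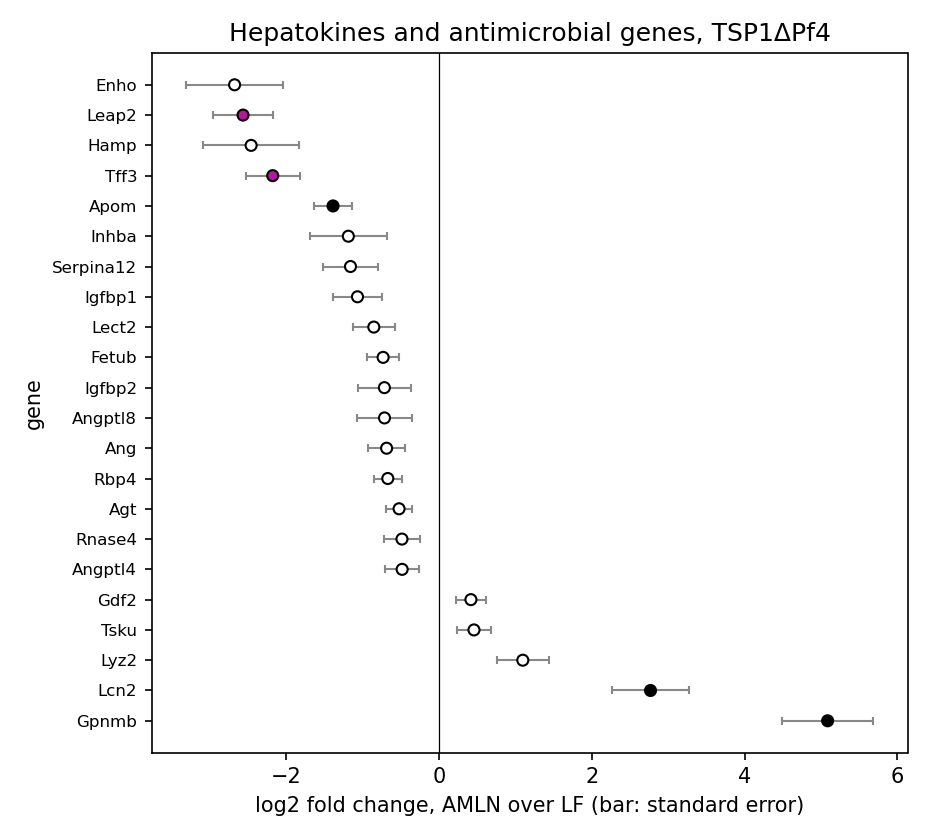
Log2 fold change, AMLN over LF, with its standard error as a bar, for the tested hepatokines and antimicrobial genes of the TSP1ΔPf4 table, with Tff3 added; filled black points were called by edgeR, open points were not, and Leap2 and Tff3 are coloured and carry no test. Enho (-2.68), Leap2 (-2.56), Hamp (-2.46) and Tff3 (-2.18) are the 4 lowest, and Lcn2 (2.77) and Gpnmb (5.09) the highest.

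The partners of the peptides were mostly outside the tables. Of the other 5 genes of the ghrelin system, including ghrelin, its receptor Ghsr and the acylating enzyme Mboat4, 0 were listed in either table. The same held for 2 of 2 other trefoil factors, Tff1 and Tff2, which lie next to Tff3. Of 7 proposed receptors and partners of TFF3, 0 were listed in TSP1ΔPf4 mice and 4 in TSP1F/F mice. For all genes, 3399 were listed where 13927 had been adjusted over in TSP1ΔPf4 mice, and 2558 where 16784 had been in TSP1F/F mice. No conclusion about these small lists is drawn from the counts. Of 8 proprotein convertases, the enzymes that cut precursors of secreted peptides, Furin and Pcsk4 were listed. Furin had 121 ± 47.6 CPM on LF and 194 ± 67.5 CPM on AMLN, and Pcsk4 had 31.7 ± 6.98 and 21.1 ± 1.90 CPM (SD, n = 4 each); neither passed the test (edgeR adjusted p = 0.382 and 0.161). A gene outside the tables is not analysed here, whatever its level.

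The listed goblet cell gene and the 3 listed bile duct markers had fold changes above 0, as had 1326 of all 3089 genes tested, of which 45 were called higher. Of 23 other goblet cell and mucosal genes Creb3l1 was the single one listed, with 0.504 CPM on LF and 1.44 CPM on AMLN (edgeR adjusted p = 0.166). Of 18 cholangiocyte markers Epcam, Sox9 and Bicc1 were listed, each with a log2 fold change above 0 and none called. Their summed level was 4.30, 4.83, 2.92 and 3.98 CPM in the LF-fed and 6.27, 8.96, 13.7 and 5.08 CPM in the AMLN-fed mice, with Sox9 the most abundant. Sox9 (4135 bases) and Bicc1 (7441 bases) are long genes, and LF replicate 3, the lowest in this sum, had a median deviation of -0.41 over genes longer than 4000 and up to 8000 bases. The part of bile duct cells in the level of Tff3 was not tested.

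Listed hepatocyte markers summed to 35483, 36260, 45418 and 38698 CPM in LF-fed and 25549, 20150, 21898 and 26672 CPM in AMLN-fed mice, and 0 of 11 were called (1 lower, Serpina1c, without AMLN replicate 4, against 103 of 3122 for all genes tested in that fit), with 9 fold changes below 0 and a median of -0.73, against 1763 of 3089 below 0 and a median of -0.54 for all genes tested. Listed macrophage markers, 12 of 17 and led by Cd5l, summed to 94.8, 111, 209 and 139 CPM in LF-fed and 318, 325, 309 and 436 CPM in AMLN-fed mice. All 12 had fold changes above 0, with a median of 1.68, and 4 were called higher, against 1326 of 3089 above 0 and 45 called higher for all genes tested. Without LF replicate 3 and with TMM 8 were called higher, against 83 of 3144 and 160 of 3089 for all genes tested in those fits, and 2 without LF replicate 2 or AMLN replicate 2 or 3; without LF replicate 4 it was 0. Among the 4 were Csf1r, the receptor of macrophage growth factors (10.3 to 35.6 CPM, edgeR adjusted p = 0.0227), and Vsig4, a complement receptor of resident macrophages (9.35 to 20.9 CPM, edgeR adjusted p = 0.0448). Both calls were lost with a replicate block (0.0785 and 0.136) and without LF replicate 2 or 4 or AMLN replicate 2 or 3, and that of Vsig4 also without LF replicate 1 or AMLN replicate 1. The part of these shifts in the levels of Leap2 and Tff3 was not tested.

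Of 24 fasting and feeding genes 9 were listed, and G6pc, the last enzyme of glucose release, fell from 329 ± 36.1 to 157 ± 28.1 CPM (SD, n = 4 each; log2 fold change -1.06, standard error 0.21, edgeR adjusted p = 0.0476), the 1 call in that list, where 4 fold changes were above 0 and 5 below 0 with a median of -0.44, against -0.54 and 47 of 3089 called lower for all genes tested. It was called under 7 of 16 alternatives, and not with TMM (0.0663), the authors' size factors (0.0556) or a replicate block (0.137), nor without LF replicate 1, 2 or 4 or AMLN replicate 1, 2 or 3, where edgeR's adjusted p reached 0.183. Without AMLN replicate 4, Scd1 and Acaca were called higher as well, 2 of 9 against 79 of 3122 for all genes tested in that fit. Of 28 growth hormone and sex dependent genes 9 were listed and 8 tested, 7 of them with fold changes below 0 and a median of -1.04, against -0.54 and 47 of 3089 called lower for all genes tested. Mup20, a male urinary pheromone protein, fell from 6273 ± 2360 to 2071 ± 477 CPM (SD, n = 4 each; log2 fold change -1.60, standard error 0.28, edgeR adjusted p = 0.0406). Near-identical Mup copies share reads, so its counts are uncertain, and its call was lost with a replicate block (0.112) and without LF replicate 2 or 4 or AMLN replicate 1, 2 or 3, where edgeR's adjusted p reached 0.13. Without AMLN replicate 4, Mup3 and Hsd3b5 were called lower as well, 3 of 8 against 103 of 3122 for all genes tested in that fit.

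The remaining lists held few listed genes. Beside each apply the values for all 3089 genes tested, a median of -0.54 with 45 called higher and 47 called lower. With so few genes, 0 called is near that share and is no result about a list. Hspa5, Hsp90b1 and Dnajb9, chaperones of the secretory pathway, were the 3 of 24 endoplasmic reticulum stress genes listed, with a median log2 fold change of -0.60 and 0 called. Of 13 stellate cell and myofibroblast markers 4 were listed, with a median of 1.37 and 0 called. Without AMLN replicate 4, 3 of the 4 were called higher, Col3a1 (edgeR adjusted p = 0.0444), Col1a2 (0.0407) and Col1a1 (0.0393), against 79 of 3122 for all genes tested in that fit. The 4 markers, with Col3a1 the most abundant, summed to 31.2, 27.9, 23.4 and 18.4 CPM in LF-fed and 66.8, 61.0, 113 and 27.2 CPM in AMLN-fed mice, so AMLN replicate 4 lay within the range on LF. Of 13 neutrophil and lymphocyte markers Cd8a alone was listed, and it was called only without LF replicate 1 among the mice left out. The remaining LF-fed mice all had 0 CPM of Cd8a, so that call compares with a count of 0 and supports no conclusion. Of 9 adipocyte markers 2 were listed, and Cidec, a lipid droplet protein, rose from 23.4 to 106 CPM (edgeR adjusted p = 0.0441), a call lost with a replicate block (0.115) and without LF replicate 1, 2 or 4 or AMLN replicate 1, 2 or 3. Of 21 liver transcription factors 4 were listed and 0 called, and of 15 epithelial genes foreign to healthy liver 5 were listed, 3 tested and 0 called, or 1, Ly6d, without AMLN replicate 4.

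Within 200 kb of Leap2, 4 of 13 protein-coding neighbours were listed. Uqcrq, a subunit of respiratory complex III on the strand of Leap2 whose 3' end lies 4751 bases away, had a log2 fold change of -1.49 (standard error 0.35, edgeR adjusted p = 0.0678). On the other side Aff4, an elongation factor scaffold on the opposite strand that ends 350 bases from Leap2, had 0.41 (standard error 0.21, edgeR adjusted p = 0.334). Hspa4, a heat shock protein, had 0.46 (standard error 0.21, edgeR adjusted p = 0.262). Gm10447 had too few counts to be tested, with 0.606 CPM on LF and 0.101 CPM on AMLN, and 1.46 CPM in LF replicate 3. Near Tff3, 2 of 9 neighbours were listed, Abcg1, a cholesterol exporter, at 1.47 (standard error 0.30, edgeR adjusted p = 0.0526), and Slc37a1 at 1.49 (standard error 0.53, edgeR adjusted p = 0.155). Abcg1 was called with TMM (edgeR adjusted p = 0.0307), without LF replicate 3 (0.0474) and when adjusted over the tested genes only (0.0117). DESeq2 called Abcg1 (adjusted p = 9.85e-06), Uqcrq (0.00287), Slc37a1 (0.0211), Aff4 (0.0465) and Hspa4 (0.049). Of all 3089 genes tested, it called 1010 higher and 366 lower. Whether reads were counted by strand is not given in the sources used here.

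Over the 8 TSP1ΔPf4 mice, the genes most like Leap2 by Pearson's r of log2(CPM + 0.5) were Spc24, Ss18l2, Bola1, Gm12350 and Ndufa6, with r from 0.991 to 0.995, and the least alike were Npepps (-0.986), Cd74 (-0.984) and Il6st (-0.979). The most like Tff3 were Katnbl1, Mup20, Gnmt, Mrpl30 and Park7, with r from 0.978 to 0.991, and the least alike were Gpat3 (-0.975), Usp8 (-0.972) and Iqgap1 (-0.971). These values describe mice that form a cluster per diet and genes selected on the diet, and 605 of 2977 genes had r over 0.9 with Leap2 and 433 with Tff3. Tff3 was at position 103 of the genes most like Leap2, and Leap2 at position 47 of those most like Tff3 (r = 0.959, n = 8).

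Deviations from group means leave out the diet difference. By these, Leap2 was most like Khdrbs1, Gm8451, 2010001A14Rik, Gm12350 and Tmem147, with r from 0.985 to 0.993, and Tff3 was most like Gm13522, Tmem243, Tmed5, Nudt2 and Wdr89, with r from 0.941 to 0.978. Over 8 mice 200 of 2977 genes had such an r over 0.9 with Leap2 and 55 with Tff3. Without LF replicate 3 these counts were 53 and 15. Between Leap2 and Tff3 this r was 0.732 over 8 mice and 0.247 over 7 mice without LF replicate 3. By the r over 8 mice Tff3 was at position 887 of 2977 for Leap2 and Leap2 at 662 for Tff3.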

How the data were processed

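Liver RNA of 16 male mice was sequenced by the authors as paired reads of 150 bases. The study's methods name STAR for alignment to mm10, and the submitters' processing notes name HISAT2 and DESeq2. The deposited counts per gene are whole numbers. The deposited signal values are counts divided by 1 size factor per library, and the deposited FPKM are counts divided by gene length and library total. The deposited log2 fold changes and p-values are the authors' DESeq2 comparison of AMLN with LF. They are not printed here, and p-values served only to find that listed genes had an unadjusted p under 0.05 and that 13927 (TSP1ΔPf4) and 16784 (TSP1F/F) genes had been adjusted over. All 48 columns of single mice were matched.

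Each table was tested alone with edgeR 4.0.16 (R 4.3.3, limma 3.58.1; quasi-likelihood test, filterByExpr, prior count 0.125, library totals as fixed sizes) with Benjamini-Hochberg adjustment over those numbers, and called where the adjusted p was under 0.05 and the log2 fold change was beyond 0.25 in either direction. Since every listed gene was selected on the diet, its p is not independent evidence. Alternatives used DESeq2 1.42.0, other scalings, filters and thresholds, a replicate block and each mouse left out. Mice of the same number did not deviate together, so nothing about pairing or stability is read from the block alone. The comparisons of genotypes and the interaction were planned and not run, since neither gene is in the TSP1F/F table. Members and lists were chosen with earlier results of these data known. Named were both peptide genes, up to 4 listed members of 7 lists and up to 3 of the others, called genes first and then by mean CPM, and the most and least alike genes with a mean CPM of at least 1; Enho and genomic neighbours were added later. Not every named gene is described. Gene models came from GENCODE.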

Additional observations from a re-analysis of the deposited data

Results flagged for a closer look

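In the groups of 4 mice of 49 named genes, 152 groups were looked at for a mouse far from the others, by the gap to the nearest mouse over the range of the group against Dixon's critical value at 95%, and 15 passed. For independent, normally distributed values about 1 in 20 would pass. These genes share the same mice and some levels lie near 0, so 15 of 152 is not read as an excess. In LF-fed TSP1ΔPf4 mice, replicate 3 was far above the others for Leap2 (0.884), Foxa3 (0.947) and Gm10447 (0.858), replicate 4 for Cyp4a14 (0.988), replicate 2 for Hsp90b1 (0.852) and replicate 1 for Cd8a (1.00). In AMLN-fed TSP1ΔPf4 mice, replicate 4 was far from the others for Hamp (0.915), Furin (0.91) and Creb3l1 (0.937), and replicate 3 for Gpnmb (0.962). In TSP1F/F mice the same held for Lcn2 in AMLN replicate 1 (0.887), for Mup3 (0.873), Cd8a (1.00) and Ly6d (0.972) in LF replicate 3, and for Col1a1 in LF replicate 1 (0.836). Their causes were not tested. For Cd8a the ratio of 1.00 was fixed, because the other LF-fed mice of each genotype had 0 CPM. The single mouse above 0 had 0.425 CPM (TSP1ΔPf4) and 0.0551 CPM (TSP1F/F).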

How the results depend on the processing

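The log2 fold changes of Leap2 and Tff3 stayed below 0 under all 17 alternatives each, and 16 of 17 moved them by less than the pooled SD within groups of log2(CPM + 0.5), which was 0.62 and 0.42. The standard errors were passed by DESeq2 for both, without LF replicate 3 for Leap2 and by TMM for Tff3. The exception to the SD, chosen after the data were seen, was the level relative to genes longer than 400 and up to 650 bases, which gave -1.36 for Leap2 and -0.78 for Tff3. Leaving out 1 mouse gave -2.74 to -2.05 for Leap2 and -2.32 to -1.87 for Tff3. TMM moved the median of all genes from -0.54 to -0.21 and gave -2.18 and -1.81, and DESeq2, with size factors from the selected genes, gave -0.20, -2.17 and -1.80. With a replicate block they were -2.46 and -2.11. By Spearman's rho, 0 of the 5 genes most like Leap2 and 1 of the 5 most like Tff3 were shared with those by Pearson's r, and 23 genes tied at a rho of 1 with Leap2. The count of called genes in TSP1ΔPf4 mice was 92 (45 higher, 47 lower). It was 1376 with DESeq2 (1010 higher, 366 lower), 198 with TMM (160 higher, 38 lower), 78 with the authors' size factors (44 higher, 34 lower), 2187 when adjusted over the tested genes only, 4 with a replicate block, and 1 to 182 without 1 mouse, 1 without LF replicate 4, 3 without LF replicate 2 or AMLN replicate 2 or 3, 9 without AMLN replicate 1, 61 without LF replicate 1, 169 without LF replicate 3 and 182 without AMLN replicate 4. In TSP1F/F mice 52 genes were called, 741 with DESeq2 (285 higher, 456 lower), 83 with no filter, 1124 adjusted over the tested genes only, 10 with a replicate block and 2 to 61 without 1 mouse. Of 38 named genes not called in TSP1ΔPf4 mice, 22 were called with DESeq2, 31 when adjusted over the tested genes only and 9 without 1 mouse. Mice of the same number did not deviate together (r from -0.484 to 0.287 in TSP1ΔPf4 and from -0.361 to 0.294 in TSP1F/F mice), so the numbers were not taken as pairs. The causes of these changes were not tested. The genotype comparisons and the interaction, with their alternatives, were not run. At 39 counts in the lowest AMLN-fed mice, depth limits Tff3.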
